A study of Mus musculus with 13 samples.

Results

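This report describes 8 genes that mark tissue-resident macrophages, Cbr2, Lyve1, Cd5l, Clec10a, Folr2, Mrc1, Cd163 and Timd4, in RNA-seq of damaged hepatocytes (dHeps). They were taken by symbol from the deposited tables, and all 8 were found among the 27141 genes listed. The dHeps were isolated by collagenase perfusion from wild-type mice with chronic carbon tetrachloride (CCl4) injury and kept for 16 days in serum-free medium. Cells received the solvent DMSO, a cocktail of 5 compounds (5C), or 5C without 1 of them. The compound left out was GSK429286A, which inhibits ROCK, in 5C-G, CID755673, which inhibits protein kinase D, in 5C-C, ETC-1002, which activates AMPK, in 5C-E, forskolin, an activator of adenylate cyclase, in 5C-F, and Salidroside, a glycoside of plants, in 5C-S. There were 2 libraries, called A and B, in each group except 5C-S, which had 1 library. All groups share the CCl4 injury, and no uninjured culture was analysed here. The study's methods describe its replicates as biological ones, without saying for these libraries whether A and B differ by culture or by animal.

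The genes were selected on results of these same libraries, namely their low values in 5C relative to DMSO and the high value of Cd5l in 5C-G. The differences of 5C from DMSO and of 5C-G from 5C are therefore given as descriptions, without a test. Tests were made between the groups that lack forskolin, CID755673 or ETC-1002 and between each of these and 5C. The comparisons with 5C share the 5C libraries with the comparisons that chose the genes, and the others do not.

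Resident macrophages of the liver include Kupffer cells, which sit in the sinusoids, and macrophages of the capsule and portal tract. They clear particles, dying cells and haemoglobin complexes through scavenger receptors, and they depend on CSF1 receptor signalling. As background, Mrc1 (mannose receptor CD206) and Clec10a (a lectin for galactose and N-acetylgalactosamine) bind sugars, Lyve1 binds hyaluronan, Cd163 takes up haemoglobin bound to haptoglobin, Timd4 binds phosphatidylserine on dying cells, Folr2 is a folate receptor, Cd5l is a secreted scavenger-receptor family protein and Cbr2 is a carbonyl reductase. Lyve1 and Mrc1 are also genes of liver sinusoidal endothelium, and Clec10a is also a gene of some dendritic cells.

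On GRCm39 all 8 are protein-coding. Cbr2 lies at chr11:120620312-120622940 on the minus strand, Lyve1 at chr7:110448585-110462460 (minus), Cd5l at chr3:87265182-87278380 (plus) and Clec10a at chr11:70047023-70061660 (plus). Folr2 lies at chr7:101489195-101506401 (minus), Mrc1 at chr2:14234151-14336926 (plus), Cd163 at chr6:124281606-124307560 (plus) and Timd4 at chr11:46701620-46735177 (plus). Exons of Folr2 overlap the lncRNA Gm10602 on the opposite strand, and the Cd163 locus overlaps the opposite-strand lncRNA Gm56975 without shared exonic bases. Whether reads were counted by strand is not given in the sources used here, so reads of Folr2 and Gm10602 cannot be told apart.

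Promoters are shown for Cbr2, Cd5l and Mrc1, the 3 members with the highest mean level. The sequences run 5′ to 3′ from 250 bases before to 50 bases after the start site on the gene's strand (RefSeq, GRCm38.p6). Capitals mark matches, on either strand, to the letters GGAAGT (core of the PU.1 site), TGCTGA (core of the MAF site), TGACG and TGACGTCA (CRE), TGACTCA (AP-1) or CACGTG (E box).
Cbr2, chr11:120731972-120732271, minus strand: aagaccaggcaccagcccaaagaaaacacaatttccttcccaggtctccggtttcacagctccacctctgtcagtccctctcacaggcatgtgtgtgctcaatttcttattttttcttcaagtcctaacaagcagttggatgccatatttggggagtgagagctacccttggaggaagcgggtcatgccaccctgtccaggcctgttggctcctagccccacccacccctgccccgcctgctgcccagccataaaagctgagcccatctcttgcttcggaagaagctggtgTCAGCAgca
Cd5l, chr3:87357631-87357930, plus strand: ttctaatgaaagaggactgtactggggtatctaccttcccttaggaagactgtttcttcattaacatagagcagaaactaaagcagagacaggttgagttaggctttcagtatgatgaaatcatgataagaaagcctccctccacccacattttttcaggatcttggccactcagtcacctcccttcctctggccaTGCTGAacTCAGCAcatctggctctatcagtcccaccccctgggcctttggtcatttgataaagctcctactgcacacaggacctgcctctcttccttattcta
Mrc1, chr2:14229164-14229463, plus strand: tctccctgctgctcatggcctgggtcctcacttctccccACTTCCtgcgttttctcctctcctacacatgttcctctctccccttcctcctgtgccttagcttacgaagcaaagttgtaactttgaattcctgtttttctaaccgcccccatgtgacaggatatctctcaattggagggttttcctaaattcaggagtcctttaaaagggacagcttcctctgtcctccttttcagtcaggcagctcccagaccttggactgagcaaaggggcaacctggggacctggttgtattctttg

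Promoters were found in that table for 6 of the 8 genes, with 7 promoters in all because Folr2 has 2. Lyve1 and Clec10a had no entry. TGCTGA was present in promoters of Cbr2, Cd5l, Folr2 and Timd4, and in 19.5% of the 32851 promoters of the table. Cd5l held it on both strands, beginning 54 and 46 bases before the start site. GGAAGT was present in Mrc1, Folr2 and Timd4 and in 23.8% of all promoters. The longer PU.1 sequence GAGGAAGT, which contains GGAAGT, was in no member promoter and in 3.20% of all. TGACTCA was found in 1 Folr2 promoter (5.20% of all) and TGACG in Timd4 (20.8%). Neither TGACGTCA (1.79%), which contains TGACG, nor CACGTG (7.15%) was found in a member promoter. These matches describe letters in this window and were not tested as binding sites.

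Total counts per library ran from 30195867 to 45491932. The chi-square of the counts of libraries A and B, divided by its degrees of freedom, ran from 8.01 in DMSO to 86.6 in 5C-G, so both libraries of every pair were kept as separate. Hepatocyte transcripts were abundant in all groups, with a mean Alb level of 2421 FPKM in 5C-E at the lowest and 15798 FPKM in 5C-F at the highest. Macrophage transcripts were present in all libraries as well. The summed level of 18 pan-macrophage genes, among them Lyz2, C1qa and C1qb, ran from 6401 to 6476 FPKM in DMSO, 809 to 904 in 5C, 6447 to 8721 in 5C-G, 1506 to 2270 in 5C-C, 1038 to 1175 in 5C-E and 2343 to 2678 in 5C-F, and was 904 FPKM in 5C-S. In bulk RNA, fewer macrophages and less RNA per macrophage cannot be told apart.

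The 8 genes were highest in the DMSO and 5C-G cultures and, by group means, lowest in 5C or 5C-S. Their summed level was 439 and 474 FPKM in DMSO, 33.3 and 35.6 FPKM in 5C and 396 and 498 FPKM in 5C-G across the 2 libraries of each group. It was 65.8 and 71.8 FPKM in 5C-C, 56.0 and 56.1 FPKM in 5C-E, 106 and 110 FPKM in 5C-F and 39.1 FPKM in 5C-S. DMSO and 5C-G overlapped, and both lay above every other library.

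**Figure D1:**
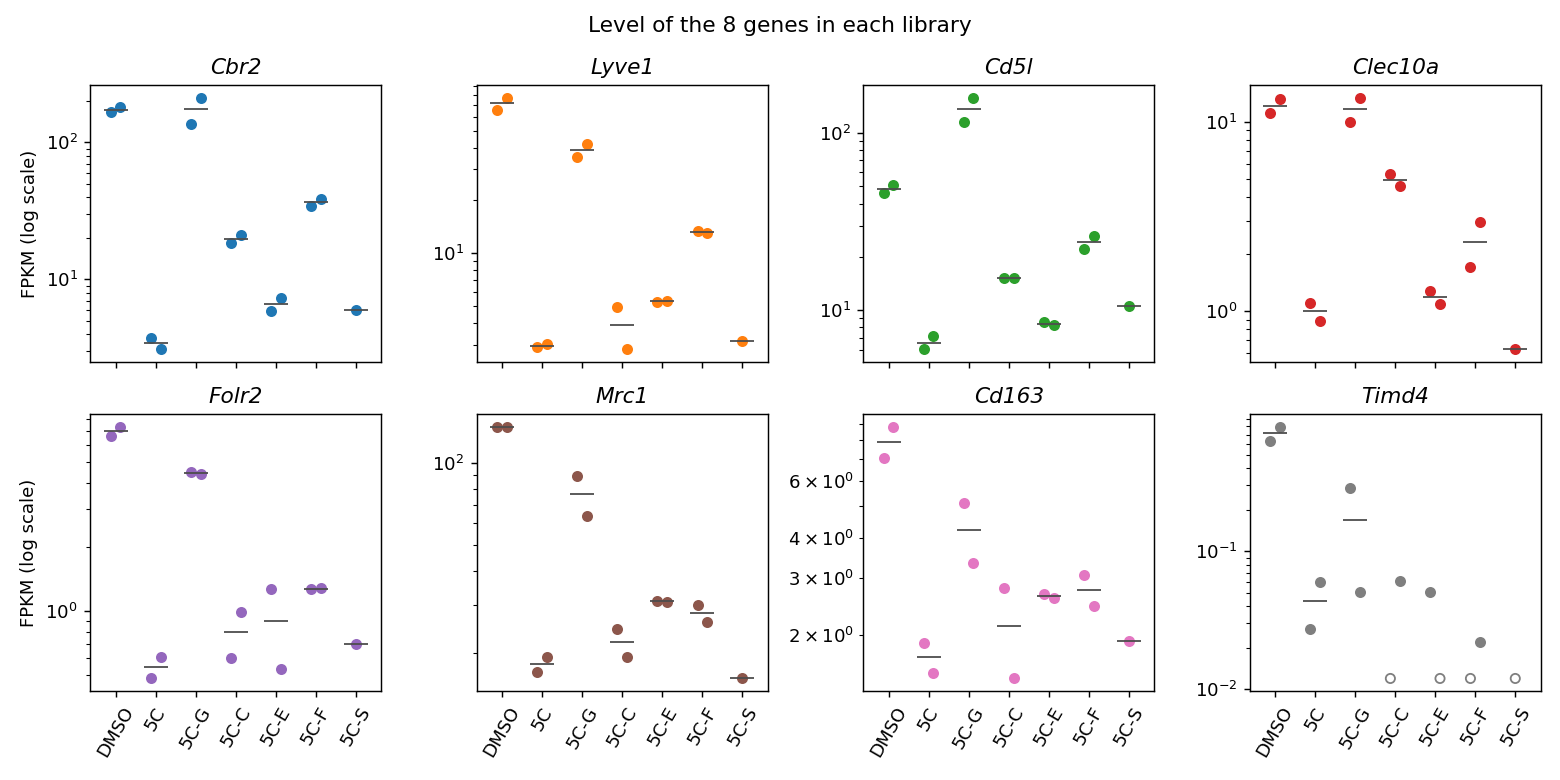
Level of each gene in every library, in FPKM on a log axis, by culture group. Points are libraries, bars are group means, and open circles near the lower edge of the Timd4 panel are libraries listed at 0. For Cbr2 the DMSO and 5C-G libraries sit between 136 and 212 FPKM and the 5C libraries at 3.09 and 3.75 FPKM.

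Among the 8 genes, the widest range of levels was that of the carbonyl reductase Cbr2. Libraries A and B held 166 and 180 FPKM in DMSO, 3.75 and 3.09 in 5C, 136 and 212 in 5C-G, 18.4 and 21.2 in 5C-C, 5.86 and 7.29 in 5C-E and 34.2 and 38.7 in 5C-F, and the 5C-S library held 6.03 FPKM. The 5C mean was 1.98% of the DMSO mean and the 5C-G mean was 101% of it, with DMSO inside the range of 5C-G. The order was 5C-G and DMSO, then 5C-F, 5C-C, 5C-E and 5C-S, then 5C, and only 5C-G with DMSO and 5C-E with 5C-S overlapped. The reductases Dcxr, Cbr1 and Cbr3, relatives of Cbr2, did not follow it: their group means lay between 14.5 and 66.7 FPKM everywhere, and in 5C they were at 31.4, 26.4 and 21.4 FPKM against 33.1, 19.1 and 14.5 FPKM in DMSO.

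The secreted protein Cd5l was the single member above its DMSO level in 5C-G in both libraries. It was at 45.8 and 50.6 FPKM in DMSO, 6.03 and 7.13 in 5C, 115 and 158 in 5C-G, 15.3 and 15.3 in 5C-C, 8.54 and 8.26 in 5C-E, 22.3 and 26.2 in 5C-F and 10.6 in 5C-S. The 5C-G mean was 284% of the DMSO mean, and the 5C-F mean was 50.3% of it. No 2 neighbouring groups in the order of levels overlapped.

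The sugar-binding receptors differed from each other. Mrc1 was at 136 FPKM in both DMSO libraries, 17.1 and 19.3 in 5C, 89.4 and 63.9 in 5C-G, 24.5 and 19.3 in 5C-C, 31.2 and 30.9 in 5C-E, 30.01 and 25.9 in 5C-F and 16.1 in 5C-S. In 5C-G it reached 56.4% of DMSO, with no overlap. Mrc2, its relative, did not share this pattern, with a mean of 12.5 FPKM in DMSO and 18.6 in 5C. Clec10a was at 11.1 and 13.2 FPKM in DMSO, 1.10 and 0.887 in 5C, 9.96 and 13.4 in 5C-G, 5.28 and 4.59 in 5C-C, 1.27 and 1.09 in 5C-E, 1.70 and 2.94 in 5C-F and 0.627 in 5C-S. It was thus at 96.2% of DMSO in 5C-G and, unlike the other members, higher in both 5C-C libraries than in both 5C-F libraries. Mgl2, the neighbouring lectin gene closest to Clec10a in sequence, was at a mean of 0.0448 FPKM or less in every group.

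The hyaluronan receptor Lyve1 was at 66.0 and 77.3 FPKM in DMSO, 2.89 and 3.01 in 5C, 35.4 and 41.8 in 5C-G, 4.94 and 2.82 in 5C-C, 5.24 and 5.35 in 5C-E, 13.4 and 12.9 in 5C-F and 3.13 in 5C-S. The 5C-G mean was 53.9% of DMSO with no overlap, and library B of 5C-C lay below both 5C libraries. Cd44, the main other hyaluronan receptor, stayed between 21.1 and 37.0 FPKM in all group means.

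The remaining scavenger and uptake receptors were less abundant. Cd163 was at 7.04 and 8.81 FPKM in DMSO, 1.90 and 1.53 in 5C, 5.13 and 3.33 in 5C-G, 2.79 and 1.47 in 5C-C, 2.68 and 2.61 in 5C-E, 3.06 and 2.46 in 5C-F and 1.92 in 5C-S, the shallowest fall of the 8, to 21.7% of DMSO in 5C. The transcript of its ligand haptoglobin, Hp, a plasma protein gene of hepatocytes, had group means of 665 to 2113 FPKM. Folr2 was at 6.63 and 7.32 FPKM in DMSO, 0.482 and 0.611 in 5C, 4.50 and 4.39 in 5C-G, 0.599 and 0.993 in 5C-C, 1.26 and 0.535 in 5C-E, 1.27 and 1.28 in 5C-F and 0.701 in 5C-S. The related receptor Folr1 was at a mean of 27.7 FPKM in DMSO and 27.8 in 5C.

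Timd4, a receptor that marks Kupffer cells of embryonic origin, was near the detection limit outside DMSO. Its counts were 50 and 54 in DMSO, 2 and 4 in 5C, 20 and 4 in 5C-G, 0 and 6 in 5C-C, 4 and 0 in 5C-E, 0 and 2 in 5C-F and 0 in 5C-S. Summed over libraries and divided by total counts, DMSO held 16.4 times the level of 5C and 4.39 times that of 5C-G, given as a description. The count of 0 in 5C-S allows up to 3 counts. Timd4 passed the filter on low counts through the DMSO libraries, and no fold change is given for it between the other groups. It is left out of the counts of called members below, which are over the other 7 genes.

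In the fit over all 19884 genes that passed the filter on low counts, with TMM scaling, the log2 fold change of 5C against DMSO was -5.74 for Cbr2, -4.68 for Lyve1, -3.74 for Folr2, -3.68 for Clec10a, -2.97 for Mrc1, -2.95 for Cd5l and -2.28 for Cd163. All 8 passed that filter, and their median was -3.71 with the fitted value of Timd4 and -3.68 without it, against 0.01 over all genes. The 18 pan-macrophage genes had a median of -2.73.

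For 5C-G against 5C the log2 fold change was 5.83 for Cbr2, 4.53 for Cd5l, 3.85 for Lyve1, 3.70 for Clec10a, 3.16 for Folr2, 2.20 for Mrc1 and 1.42 for Cd163. The median was 3.43 with the fitted value of Timd4 and 3.70 without it. The pan-macrophage median was 2.53, and that of 9 hepatocyte genes was -0.45, whose part in these values was not tested. Timd4 aside, Cd163, Lyve1 and Mrc1 lay lowest relative to DMSO when GSK429286A was left out (53.4%, 53.9% and 56.4%), whereas Cbr2 and Clec10a reached the DMSO range.

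**Figure D2:**
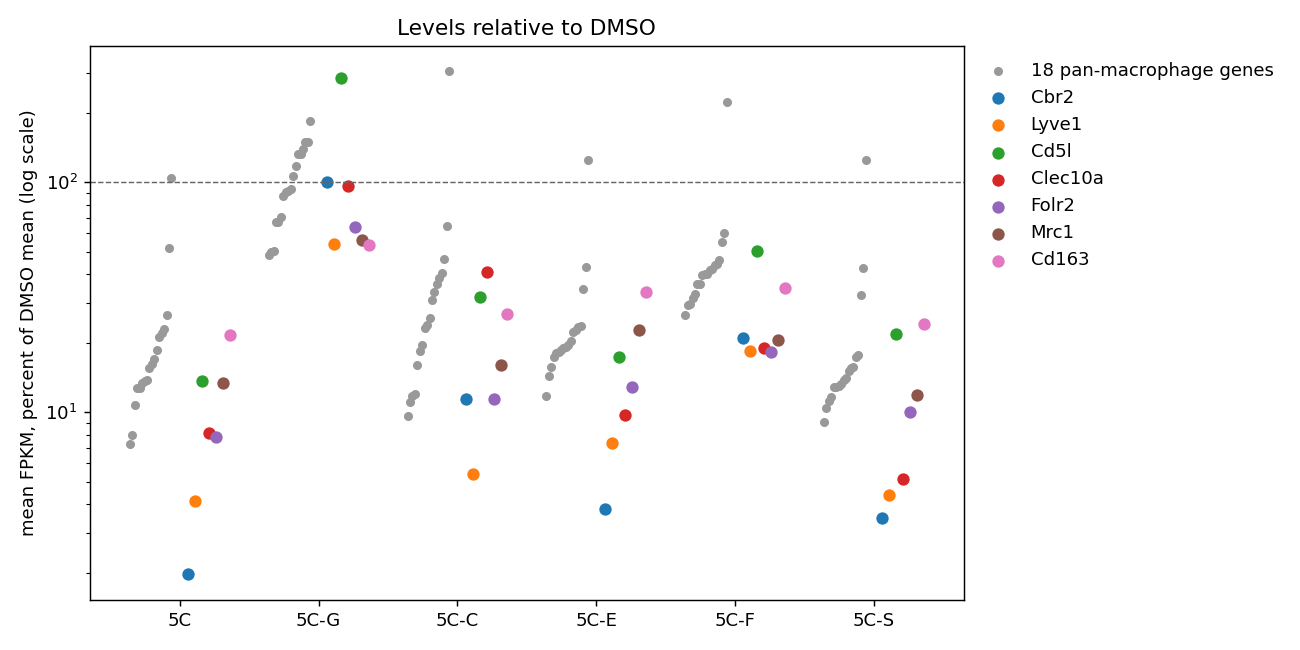
Mean FPKM of each group as a percent of the DMSO mean, on a log axis, for 7 of the genes (coloured) and 18 pan-macrophage genes (grey, sorted within a group). The dashed line is the DMSO mean. In 5C, Cbr2 (1.98%) and Lyve1 (4.12%) lie below every pan-macrophage gene, and in 5C-G Cd5l lies above them all at 284%.

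The genes were chosen for low values in the same 5C libraries that enter each comparison with 5C, so that a higher value in the other group was favoured by the choice. P-values and counts in these comparisons are no independent evidence of direction. With forskolin left out, 4 of the 7 genes were higher than in 5C and 0 lower, where a call needed an adjusted p under 0.05 and a log2 fold change beyond 1. Cbr2 was higher by 3.51 ± 0.26 on the log2 scale (SE, edgeR adjusted p = 2.83e-06), Lyve1 by 2.26 ± 0.23 (adjusted p = 5.73e-05), Cd5l by 1.98 ± 0.21 (adjusted p = 6.67e-05) and Clec10a by 1.31 ± 0.29 (adjusted p = 0.00949). Over all genes 2.69% were called higher and 2.15% lower, and the share called in either direction, 4.84%, was 1.86% without library A of 5C, 1.48% without library B of 5C and 3.24% without library B of 5C-F. The call of Clec10a was the least secure, since it was lost without either 5C library (adjusted p = 0.0617 and 0.121), without library B of 5C-F (0.92, adjusted p = 0.106) and with limma on FPKM (adjusted p = 0.0502 and 0.0754), and the adjusted p ran from 1.54e-04 to 0.121 over all settings. Mrc1 differed by 0.72 ± 0.18 (adjusted p = 0.0168), which did not reach the fold threshold. Folr2 (1.32 ± 0.44, adjusted p = 0.0641) and Cd163 (0.79 ± 0.28, adjusted p = 0.0752) did not pass the test. Of the pan-macrophage genes, 14 of 18 were called higher, with a median of 1.37. Hepatocyte genes moved as well, with 3 of 9 called higher, and their part in these values was not tested.

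With CID755673 left out, the genes that passed were Cbr2 (2.70 ± 0.25, edgeR adjusted p = 2.99e-06), Clec10a (2.47 ± 0.29, adjusted p = 2.39e-05) and Cd5l (1.38 ± 0.21, adjusted p = 1.32e-04), each higher than in 5C. This was 3 of 7 genes higher and 0 lower in a direction that the choice favoured, and 9.65% of all genes were called higher and 10.5% lower. Lyve1 (0.54 ± 0.23, adjusted p = 0.0756), Mrc1 (0.43 ± 0.18, adjusted p = 0.068), Folr2 (0.73 ± 0.45, adjusted p = 0.223) and Cd163 (0.46 ± 0.28, adjusted p = 0.211) did not pass. The difference of Cd163 came to -0.01 without library A of 5C-C. Leaving out single libraries gave 0.14 to 0.88 for Lyve1, 0.27 to 1.07 for Folr2 and 0.29 to 0.56 for Mrc1. The pan-macrophage genes were split, with 8 called higher, among them C1qa (2.84), C1qb (1.59) and Cd14 (1.71), and 2 called lower, the phagocytosis receptor Mertk (-2.07) and the leukocyte antigen Ptprc (-1.04). Of the hepatocyte genes 0 of 9 were called higher and 2 lower. Fold changes rose with transcript GC content in this comparison (Spearman rho = 0.48 across 8925 genes, which are not independent). The rho was 0.44 in 5C-E against 5C, 0.32 in 5C-F against 5C, 0.40 in 5C-G against 5C, 0.49 in 5C-S against 5C, -0.26 in 5C against DMSO, -0.37 in 5C-F against 5C-C and 0.01 in 5C-F against 5C-E. GC content and transcript length were entered as an offset in an alternative fit. For 5C-C against 5C that fit called 11.4% of all genes, beside 20.2% without the offset. There Cbr2 kept its call at 1.70, Cd5l was at 0.96, under the fold threshold, Mrc1 reached 1.00 (adjusted p = 5.15e-05) and Folr2 was at 0.01.

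Leaving out ETC-1002 gave no call among the 7 genes, against 0.654% of all genes called higher and 1.31% lower. No log2 fold change among the 7 genes exceeded 0.87, so an unadjusted p with the same fold threshold gave no call, beside 4.41% of all genes. DESeq2 called 0 of them, beside 1.92% of all genes. Mrc1 was higher by 0.70 ± 0.18 (edgeR adjusted p = 0.0379), below the fold threshold and with an adjusted p of up to 0.382 over the settings tried. Cbr2 (0.87 ± 0.25, adjusted p = 0.072), Lyve1 (0.77 ± 0.23, adjusted p = 0.0872), Folr2 (0.65 ± 0.44), Cd163 (0.56 ± 0.28), Cd5l (0.28 ± 0.21) and Clec10a (0.18 ± 0.29) did not pass, although 5C-E libraries lay above both 5C libraries for Cbr2, Lyve1, Cd5l, Mrc1 and Cd163. Of the pan-macrophage genes 0 of 18 were called, and of the hepatocyte genes 4 of 9 were called lower.

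The 5C-S library was compared with 5C without a test. The log2 difference was 0.80 for Cbr2, 0.67 for Cd5l, 0.34 for Folr2, 0.14 for Cd163, 0.07 for Lyve1, -0.19 for Mrc1 and -0.68 for Clec10a. The median was 0.11 with the fitted value of Timd4 and 0.14 without it, and that of the pan-macrophage genes was -0.10.

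**Figure D3:**
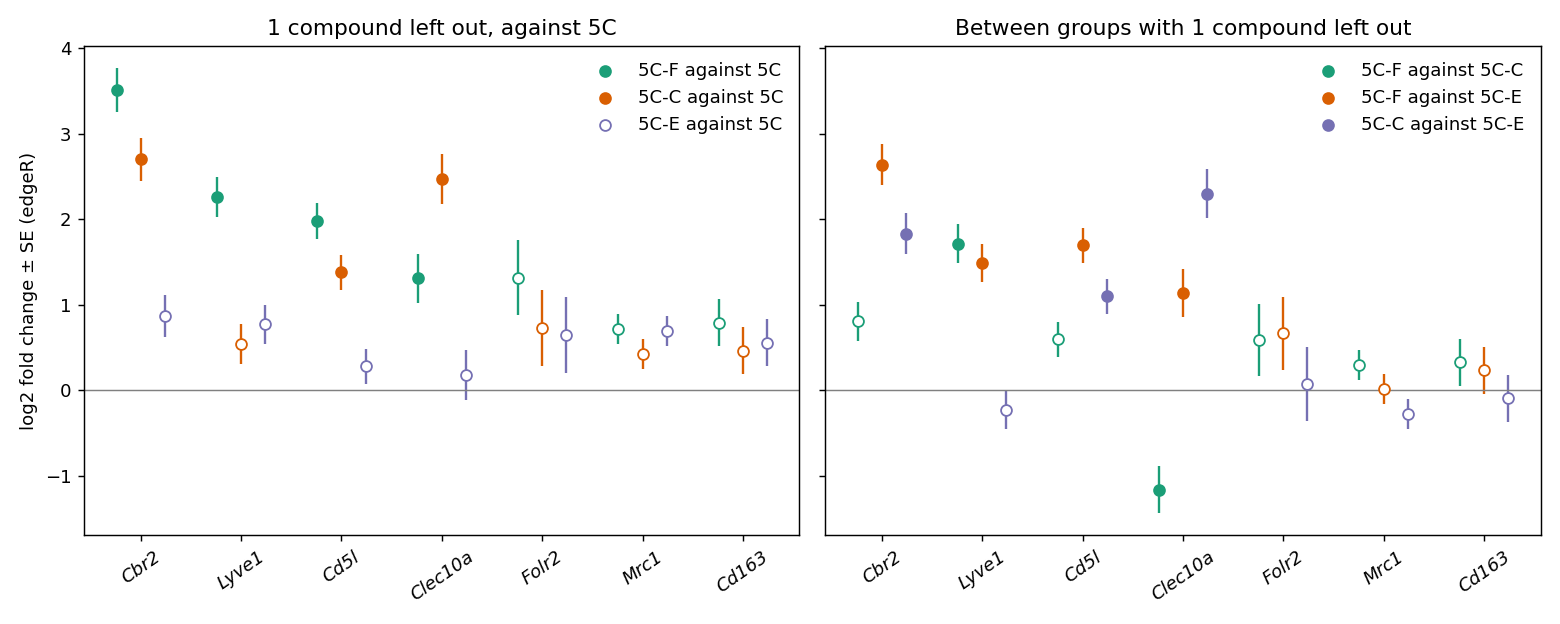
Log2 fold change with its SE from the edgeR fit for 7 genes, against 5C (left) and between groups lacking 1 compound (right). Filled points passed an adjusted p of 0.05 and a log2 fold change of 1, and open points did not. Clec10a is the gene that is higher in 5C-C than in 5C-F (-1.16), while Lyve1 is higher in 5C-F (1.72).

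The comparisons between cultures lacking forskolin, CID755673 or ETC-1002 use no library that is known to have chosen the genes. Between 5C-F and 5C-C, Lyve1 and Clec10a moved in opposite directions. Lyve1 was higher in 5C-F by 1.72 ± 0.23 (edgeR adjusted p = 6.79e-05), a call kept under all 13 other settings with log2 values of 1.38 to 2.12. Clec10a was lower in 5C-F, at -1.16 ± 0.27 (adjusted p = 0.00705), and this call was lost without library A of 5C-F (-0.85, adjusted p = 0.108) and with limma on log2(FPKM + 1) (-0.86). This made 1 gene higher and 1 lower of 7, beside 5.26% and 4.92% of all genes. Cbr2 (0.81 ± 0.23, adjusted p = 0.0203) and Cd5l (0.60 ± 0.20, adjusted p = 0.0465) passed the p threshold but not the fold threshold. Mrc1 (0.30 ± 0.17), Folr2 (0.59 ± 0.42) and Cd163 (0.33 ± 0.27) did not pass. Of the pan-macrophage genes 4 of 18 were called higher and 0 lower, with a median of 0.45. Hepatocyte genes were higher too, with 5 of 9 called and a median of 1.16, and their part in these values was not tested.

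Between 5C-F and 5C-E, 4 of 7 genes were higher in 5C-F and 0 lower, beside 4.45% and 4.29% of all genes. The differences were 2.64 ± 0.24 for Cbr2 (edgeR adjusted p = 1.81e-06), 1.70 ± 0.21 for Cd5l (adjusted p = 2.76e-05), 1.49 ± 0.23 for Lyve1 (adjusted p = 2.30e-04) and 1.14 ± 0.28 for Clec10a (adjusted p = 0.0102). The Clec10a call was kept under 5 of 13 other settings, with a log2 value of 0.58 to 1.44 and an adjusted p of 0.0011 to 0.122. Without library B of 5C-F it was 0.74, and without library A or B of 5C-E it was 1.23 and 1.03, each with an adjusted p above 0.05. Mrc1 was at 0.02 ± 0.17, and its sign changed with the scaling (-0.15 with total counts). Of the pan-macrophage genes 13 of 18 were called higher, with a median of 1.18, and 7 of 9 hepatocyte genes were called higher too.

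Between 5C-C and 5C-E, 3 of 7 genes were higher in 5C-C and 0 lower, beside 6.33% and 7.34% of all genes. Clec10a differed by 2.30 ± 0.29 (edgeR adjusted p = 2.07e-04), Cbr2 by 1.83 ± 0.24 (adjusted p = 2.39e-04) and Cd5l by 1.10 ± 0.20 (adjusted p = 0.00109). With that GC and length offset, Cbr2 came to 0.92 and Cd5l to 0.59, both under the fold threshold, while Clec10a kept its call at 1.44. Cd5l was also under the fold threshold with total counts (0.87) and with limma on FPKM (0.79 and 0.86), so that its call was kept under 9 of 13 other settings. The GC content of the Cbr2 transcript, 56.9%, lay at the 88.4th percentile of the 8925 genes used for this trend, and fold changes again rose with GC content (Spearman rho = 0.33 across genes). Lyve1 (-0.23 ± 0.23), Mrc1 (-0.27 ± 0.17), Cd163 (-0.09 ± 0.27) and Folr2 (0.08 ± 0.43) did not pass, and the sign of each changed in at least 1 other setting. Of the pan-macrophage genes 4 of 18 were called higher (C1qa, C1qb, Cd14 and Tyrobp) and 2 lower (Mertk and Ptprc), with a median of 0.78. Of the hepatocyte genes 2 of 9 were called higher and 0 lower, with a median of 0.84, and their part in these values was not tested.

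Each gene was also set against the pan-macrophage level of its own library, as log2 of its FPKM over the geometric mean of the 18 pan-macrophage genes. This ratio was added after the values had been seen and carries no test. It does not depend on scaling between libraries. The geometric mean was 84.4 and 85.5 FPKM in DMSO, 14.6 and 15.6 in 5C, 72.9 and 85.2 in 5C-G, 20.3 and 25.1 in 5C-C, 18.7 and 19.4 in 5C-E, 34.1 and 38.1 in 5C-F and 14.4 in 5C-S.

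From DMSO to 5C the ratio of Cbr2 fell by 3.17 on the log2 scale and that of Lyve1 by 2.10, those of Folr2 and Clec10a by 1.19 and 1.12, and those of Mrc1 and Cd5l by 0.41 and 0.38, without overlap of libraries. That of Cd163 was 0.29 higher in 5C with overlapping libraries. In 5C-G the ratios of Cbr2 and Clec10a overlapped DMSO (differences of 0.08 and 0.04), while Cd5l was 1.60 above DMSO and Lyve1, Mrc1, Cd163 and Folr2 were at -0.78, -0.74, -0.82 and -0.54 relative to it, without overlap. In 5C-C, Clec10a was the gene whose ratio lay highest relative to DMSO (0.61), and Lyve1 was at -2.35. The reference genes were themselves split in 5C-C, from 9.64% of the DMSO mean for Ptprc to 305% for Cd14, so these ratios depend on the genes chosen as reference. In 5C-F the ratio of Cbr2 was 2.16 above that of 5C that of Lyve1 0.90 and that of Cd5l 0.63 above it, whereas Clec10a (-0.08) and Folr2 (-0.02) overlapped 5C. Those of Mrc1 (-0.64) and Cd163 (-0.57) lay below 5C without overlap. In 5C-E the ratios of Cbr2 (0.60), Lyve1 (0.51), Mrc1 (0.44) and Cd163 (0.30) lay above 5C without overlap. Those of Cd5l (0.02), Clec10a (-0.09) and Folr2 (0.26) overlapped 5C. The ratio of Mrc1 also overlapped that of DMSO (0.03).

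**Figure D4:**
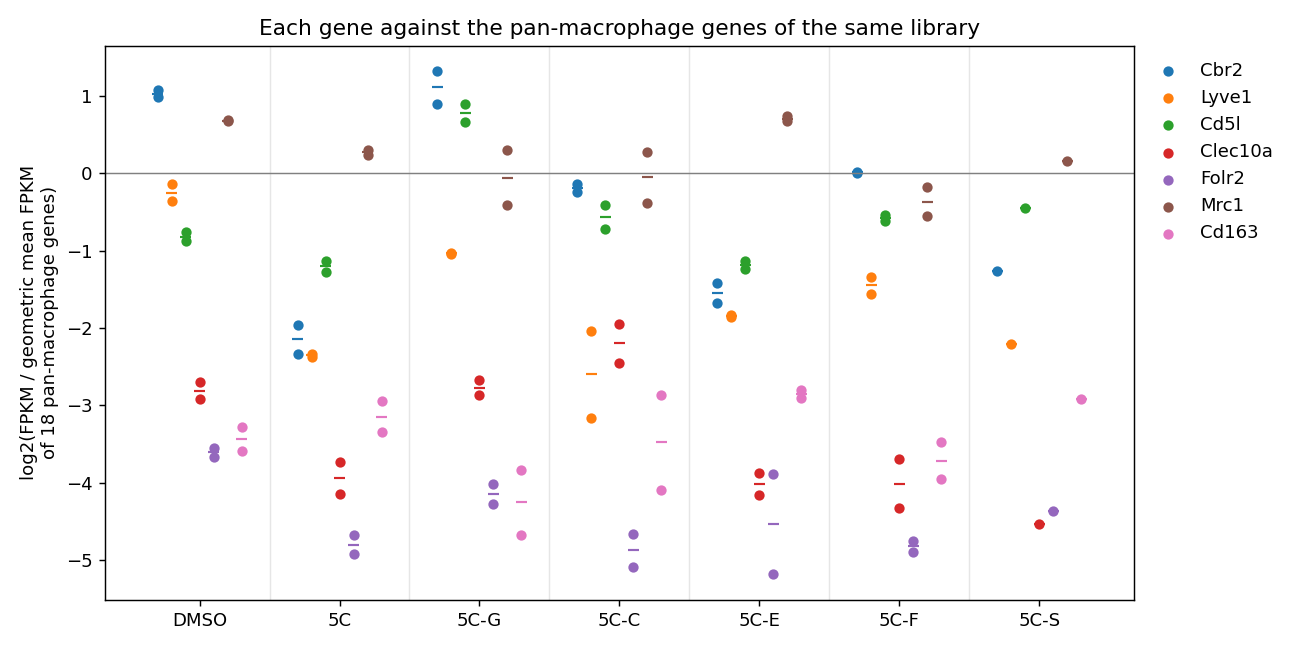
Log2 ratio of each gene's FPKM to the geometric mean FPKM of 18 pan-macrophage genes in the same library, by group. Points are libraries and short bars are group means. Cbr2 spans from -2.15 in 5C to 1.11 in 5C-G, while Cd163 stays between -4.25 and -2.85 in group means.

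Genes of other macrophage programmes and other cell types were described from lists that are not independent of earlier results of these libraries. Among Kupffer cell genes, the scavenger receptors Vsig4 (164 FPKM in DMSO, 37.8 in 5C, 96.1 in 5C-F) and Marco (16.5, 1.39 and 7.29) were present, whereas the defining genes Clec4f, Clec1b, Adgre4 and Spic were at 0.54 FPKM or less in every group mean. Hmox1, at 106, 61.4 and 65.9 FPKM, had the same order of means with smaller differences, and Id3, at 163, 247 and 238 FPKM, was lowest in DMSO. C6 (0.475 FPKM in DMSO and 0.809 in 5C) and Slc40a1 (0.881 and 1.69) were also lower in DMSO than in 5C. In 5C against DMSO, 6 of 10 tested Kupffer genes had a log2 fold change below 0 and 4 above it. Their median was -0.80, given as a description. In 5C-F against 5C, 3 of 10 tested Kupffer genes were called higher, and against 5C-E 4 of 10. In 5C-C against 5C, 1 of the 10 was called higher (Marco, 1.41) and 2 lower, the complement gene C6 (-3.55) and the iron exporter Slc40a1 (-1.41), beside 9.65% higher and 10.5% lower over all genes. The shares called higher over all genes were 2.69% in 5C-F against 5C and 4.45% in 5C-F against 5C-E, and these shares apply to the lists that follow as well. Of 10 tested genes of interstitial and alternatively activated macrophages, 7 were called higher in 5C-F and 4 in 5C-C than in 5C, with the lectin Fcna at 1.96 and 2.04. Gas6, the most abundant of them, had means of 761 FPKM in 5C, 751 in 5C-F and 789 in 5C-C. Those of Chil3 were 46.3, 93.5 and 68.7 FPKM. Among 11 tested genes of recruited monocytes and injury macrophages, 1 was called higher and 0 lower in 5C-F than in 5C (Lgals3, 1.28). In 5C-C 4 were called higher than in 5C (Fabp5 at 1.95, Plac8 at 1.88, Lgals3 at 1.50 and Trem2 at 1.32). Cx3cr1, which was listed at 0 in both 5C-C libraries and at a mean of 0.0824 FPKM in 5C, passed the calling rule as lower but is not counted, since it was near the detection limit in both groups. The monocyte genes Ly6c2 and Ccr2 were at 0.0364 FPKM or less in group means. Of 13 tested regulators, 6 were called higher in 5C-F and 3 in 5C-C than in 5C. The growth factor Csf1 was at -0.23 in 5C-F against 5C and did not pass.

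The endothelial genes Pecam1, Cdh5, Dnase1l3, Ptprb and Tie1 were at 0.14 FPKM or less in every group mean, and the summed level of 13 endothelial genes ran from 13.3 FPKM in a 5C-G library to 36.2 FPKM in a 5C-E library. The most abundant of them were Kdr, with group means of 4.48 FPKM in 5C-G to 22.1 in 5C-E, Ehd3 (3.20 in 5C-C to 8.996 in 5C) and Flt4 (3.16 in 5C-G to 7.81 in 5C-E). Of the dendritic genes, Flt3, Xcr1, Clec9a and Cd209a were at 0.0510 FPKM or less in group means, whereas Zbtb46 averaged 1.75 FPKM over the group means. The summed level (18.7 to 138 FPKM over 7 genes) was made up almost wholly of Cd24a, an epithelial gene as well. The summed level of 6 genes of other leukocytes stayed at 4.51 FPKM or less, with S100a8 the most abundant.

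The members were chosen for a shared difference between DMSO and 5C, which enters every correlation between them. Across the 13 libraries the Pearson r of log2(CPM + 1) ran from 0.72 to 0.96 over the 21 pairs without Timd4, with a median of 0.88. For the 7 pairs with Timd4 it ran from 0.50 to 0.86, with a median of 0.77. These points share libraries and group differences, and the values are a description. The genes outside the list that were most like each member by this measure were Ccl6, Pla2g7 and Fcgr3 for Cbr2 (r of 0.991, 0.990 and 0.989), Entpd1 and Lcp1 for Lyve1 (0.994 and 0.992), and Grn, Hcls1 and Ctsb for Cd5l (0.980, 0.974 and 0.971). They were Fcgr4, Slc4a8 and Fgd2 for Clec10a (0.972, 0.965 and 0.965), Ifi207, Kcnk6 and Ccr1 for Folr2 (0.984, 0.978 and 0.976), Wdfy4, Ccr1 and Tnfrsf11a for Mrc1 (0.983, 0.981 and 0.979), and Gm5431, Rab32 and Cnr2 for Cd163 (0.976, 0.965 and 0.960). For Timd4 they were Gm4995, Kcnmb1 and Prox2os (0.978, 0.963 and 0.963), at very low counts. By Spearman's rho, at most 1 of the 3 genes of each member remained among its nearest 3.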

How the data were processed

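RNA-seq libraries of cultured dHeps (13 libraries, 7 groups, day 16) were analysed from 2 deposited tables. The authors sequenced paired-end reads and mapped them to GRCm39. Their processing notes name featureCounts, Subread and DESeq2, and the versions of featureCounts and Subread and the strand handling are not given in the sources used here. The deposited counts were whole numbers per gene, not normalized. The deposited FPKM values were scaled by the authors for gene length and total count, and were used for levels. The 8 members and all lists were chosen with earlier results of these data known.

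Counts were tested with edgeR 4.0.16 (R 4.3.3; TMM, filterByExpr with a minimum count of 10, quasi-likelihood test) in 1 fit with 6 residual degrees of freedom, in place of the DESeq named by the study. P-values were Benjamini-Hochberg adjusted over 19884 genes, and a call needed adjusted p under 0.05 and a log2 fold change beyond 1. The script was tested on simulated data. Named genes were the members, genes of the lists with the highest mean FPKM, relatives and ligands compared with a member, and the 3 genes most like each member, of which 1 is not reported here. Mertk, Ptprc, Cd14, Marco, Id3, Hmox1, C6, Slc40a1, Fabp5, Plac8, Trem2, Cx3cr1, Tyrobp and the genes given as near 0 were named after their values were seen. Alternatives were total-count scaling, DESeq2 1.42.0, other filters, limma 3.58.1 on log2(FPKM + 1) and log2(FPKM + 0.1), an offset for GC content and length, other thresholds, a fit on only the groups compared, leaving out each library and, added after seeing the data, a replicate block on column numbers. Columns of per-sample values not used numbered 0. GC content came from GENCODE transcripts and promoters from RefSeq.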

Additional observations from a re-analysis of the deposited data

How the results depend on the processing

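Of 208 values of called members over the alternatives, 187 were still called and 0 changed sign. The number of members called was 1 for 5C-E against 5C with no fold threshold, where 2.94% of all genes were called. For 5C-F against 5C-C it was 1 with limma on log2(FPKM + 1), where 4.96% of all genes were called, beside 10.2% in the main fit. It was 4 with no fold threshold, where 19.0% of all genes were called, and 1 to 2 when single libraries were left out, the lower value without library A of 5C-F. For 5C-C against 5C-E it was 1 with the GC and length offset, where 6.78% of all genes were called, beside 13.7% in the main fit. The median of the 8 members, Timd4 included, was -2.71 and -3.18 for 5C against DMSO with limma at pseudocounts of 1 and 0.1, 2.33 with limma at a pseudocount of 1 and 3.05 with the GC offset for 5C-G against 5C, and 0.17 with the GC offset and 0.04 with the replicate block for 5C-S against 5C. Without Timd4 these medians were, in the same order, -2.72 and -3.46, 2.66 and 3.50, and 0.22 and 0.07. Leaving out 1 library moved the share of all genes called by over 1.5 times in 5C-E against 5C (1.96%, and 1.01% or 0.989% without library A or B of 5C and 0.695% without library B of 5C-E), in 5C-F against 5C-C (10.2%, and 5.89% without library A of 5C-F) and in 5C-C against 5C-E (13.7%, and 7.95% without library B of 5C-C), besides 5C-F against 5C. The following uncalled differences changed sign, and the cause was not tested. Without library A of 5C-C, Cd163 was at -0.01 in 5C-C against 5C, and without library A of 5C-E, Folr2 was at -0.07 in 5C-E against 5C. In 5C-F against 5C-C, Mrc1 was at -0.06 with the GC offset, and Cd163 at -0.05 without library B of 5C-C. In 5C-F against 5C-E, Mrc1 was at -0.15 with total counts and with both limma settings, at 0 without a filter and at -0.13 without library A of 5C-F. In 5C-C against 5C-E, Folr2 was at -0.17 with total counts, -0.06 and -0.09 with limma, -0.75 with the GC offset, -0.38 without library B of 5C-C and -0.41 without library B of 5C-E. There the GC offset gave 0.13 for Mrc1 and 0.08 for Cd163, and leaving out library B of 5C-C gave 0.28 for Cd163 and 0.11 for Lyve1. Total-count scaling moved the median gene by up to -0.23 (5C-C against 5C-E). The share of calls that were higher went from 55.5% to 38.6% in 5C-F against 5C, 47.8% to 33.8% in 5C-C against 5C, 50.9% to 33.4% in 5C-F against 5C-E, 46.3% to 20.5% in 5C-C against 5C-E and 57.0% to 43.4% in 5C-G against 5C. This share rose from 33.3% to 42.1% in 5C-E against 5C, 51.6% to 58.1% in 5C-F against 5C-C and 36.6% to 40.6% in 5C against DMSO. Over all settings that left out 1 library, these differences ran from -0.01 to 0.84 and from -0.05 to 0.81 for Cd163 in 5C-C against 5C and 5C-F against 5C-C, -0.07 to 1.13 for Folr2 in 5C-E against 5C, -0.13 to 0.16 for Mrc1 in 5C-F against 5C-E and, in 5C-C against 5C-E, -0.66 to 0.11 for Lyve1, -0.41 to 0.81 for Folr2 and -0.59 to 0.28 for Cd163. The sample labels share no replicate number between groups, but the table columns are numbered 1 and 2 within each group. Deviations of same-numbered columns correlated at -0.10 to 0.38 over 15 pairs of groups, above 0.1 in 8. All pairs among 5C-C, 5C-E, 5C-F and 5C-G lay between 0.11 and 0.38. The labels do not say that the numbers pair libraries, so the main fit did not use them, and a shared replicate structure remains possible. A fit with this number as a replicate block, added after seeing the data, changed no call of a member, and over all genes it gave 1098 calls in 5C-F against 5C and 4079 in 5C-C against 5C, beside 962 and 4011 without it. SDs and tests rest on 2 libraries a group, and counts of Timd4 were too low for fold changes outside DMSO.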
